A study of Bos taurus with 5 samples.

Results

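Troponin transcripts were measured by RNA sequencing in longissimus dorsi, a back muscle, of 5 Jiaxian Red cattle that were 18 months old. A library of total RNA was made per animal, the 5 libraries formed 1 group with no treatment named in the labels, and the stated aim was to find candidate genes for muscle development. The genes were chosen by symbol as TNNC1, TNNI1, TNNI2, TNNT1, TNNT2 and TNNT3, which made 6 of the 9022 genes and 13 of the 13391 transcripts of the table. TNNC2, the fast troponin C, and TNNI3, the cardiac troponin I, were not analysed here. Values are FPKM, a count of fragments divided by the length of the transcript and by the size of the library, summed over the listed transcripts of a gene, so genes can be set against each other within a library. The table holds no counts, which leaves the depth unknown, and no comparison between conditions was possible.

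Troponin is the calcium switch of the striated thin filament. Troponin C binds calcium, troponin I holds back the contact of actin with myosin at rest, and troponin T ties the complex to tropomyosin. Troponin I and troponin T have slow skeletal, fast skeletal and cardiac genes, while 1 troponin C gene serves slow skeletal and cardiac muscle and another serves fast muscle. Adult muscle fibres largely use the set that matches their fibre type, and back muscle mixes slow and fast fibres.

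Of 7 skeletal muscle markers 5 were listed, and they summed to between 12825 and 14541 FPKM. ACTA1, MYH7, MYLPF and MYBPC1 carried nearly all of that sum, while CKM, the muscle creatine kinase, averaged 16.2 ± 12.3 FPKM (SD, n = 5), with a range of 2.50 to 35.5 FPKM. MYH6, the only listed marker of the cardiac set, lay between 27.0 and 41.8 FPKM, while smooth muscle markers summed to between 34.1 and 86.3 FPKM, the fibroblast marker COL3A1 to between 297 and 625 FPKM, and leukocyte markers to between 121 and 204 FPKM. The part of these other cells in the troponin values was not tested. In bulk tissue, fewer fibres of a type and less RNA per fibre cannot be told apart. The 6 troponin genes together held 4.52% ± 0.228 of the summed FPKM (SD, n = 5), from 4.17% in library 2 to 4.77% in library 5.

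TNNC1, the slow and cardiac troponin C, was the most abundant of the 6 chosen troponin genes. Libraries 1 to 5 gave 3029.7, 3564, 3649, 5101 and 4536 FPKM. Libraries 4 and 5 lay above the other 3, and the highest exceeded the lowest 1.68-fold. The mean was 3976 ± 830 FPKM (SD, n = 5), at rank 9 of the 6136 detected genes, which were those with a mean of at least 1 FPKM. The whole gene was carried by TNNC1-201, its single listed transcript.

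TNNI1, the slow troponin I, and TNNI2, the fast troponin I, lay close to each other in level. TNNI1 stood at 875, 813, 758, 569 and 641 FPKM in libraries 1 to 5, with a mean of 731 ± 125 (SD, n = 5). TNNI2 stood at 539, 670.4, 627, 835 and 579 FPKM in the same order, with a mean of 650.1 ± 114 (SD, n = 5). The ranges of the genes overlapped. Library 4 had the lowest TNNI1 and the highest TNNI2, and library 1 the highest TNNI1 and the lowest TNNI2. Each was carried by a single transcript, TNNI1-201 and TNNI2-201, and they took ranks 32 and 33 of the detected genes.

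TNNT1 and TNNT3, the slow and fast skeletal troponin T, were both abundant, and TNNT2, the cardiac form, was near the detection limit. TNNT1 stood at 1965, 1278, 1972, 1715 and 1847 FPKM in libraries 1 to 5. Library 2 lay below the other 4, and the mean was 1755 ± 286 FPKM (SD, n = 5). TNNT2 stood at 2.09, 2.05, 1.68, 1.47 and 1.89 FPKM. Its mean of 1.83 ± 0.261 FPKM (SD, n = 5) placed it above 13.4% of the detected genes. TNNT3 stood at 2395, 2178, 2313, 2170.0 and 2204 FPKM, with a mean of 2252 ± 98.3 (SD, n = 5). The ranges of TNNT1 and TNNT3 did not overlap, as every TNNT3 value lay above every TNNT1 value.

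**Figure D1:**
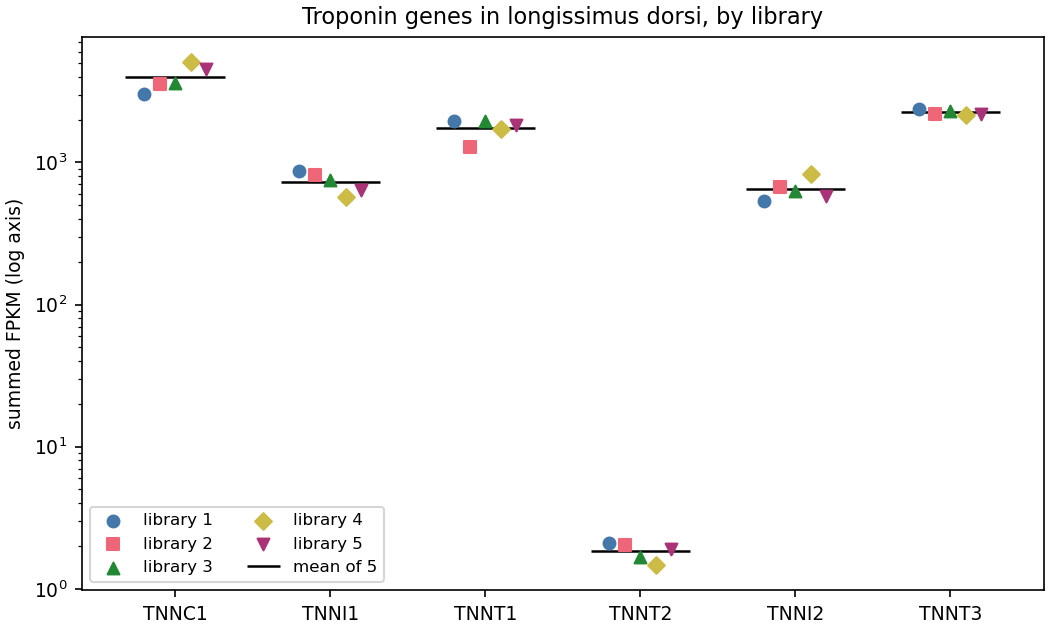
Summed FPKM (log axis) of the 6 troponin genes, with 1 point for each of the 5 libraries and a line at the mean. TNNC1 stands highest at a mean of 3976 FPKM, TNNI1 and TNNI2 overlap, and TNNT2 lies near 1.83 FPKM, far below TNNT1 and TNNT3.

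By mean level the genes ran TNNC1, TNNT3, TNNT1, TNNI1, TNNI2 and TNNT2, and 14 of the 15 possible pairs pointed 1 way in 5 of 5 libraries. The exception was the troponin I pair, in which TNNI1 was higher in 4 libraries and lower in library 4. Pairs were compared as log2 ratios of FPKM + 1 within each library, by exact permutation of their signs, two-sided. With 5 libraries this test cannot give p below 0.0625, the value of each of the 14 pairs (0.0670 after Benjamini-Hochberg adjustment over the 15 pairs), so no pair could pass 0.05. Among neighbours in the order, the log2 ratio was 0.80 ± 0.35 for TNNC1 over TNNT3, -0.38 ± 0.22 for TNNT1 over TNNT3 and -1.26 ± 0.38 for TNNI1 over TNNT1 (SD, n = 5). It was -7.83 ± 0.36 for TNNT2 over TNNI2, and 0.17 ± 0.45 for TNNI1 over TNNI2 (exact p = 0.5, adjusted 0.5), a difference smaller than the spread between libraries. Without library 4 the last ratio was 0.35, and without library 1 it was 0.04.

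The same ratios were read from limma fits of every detected gene against 1 troponin gene, adjusted by the Benjamini-Hochberg method over all genes tested. The adjusted p was 0.000904 for TNNC1 over TNNT3, 0.0095 for TNNT1 over TNNT3, 1.24e-05 for TNNI1 over TNNT1, 1.8e-11 for TNNT2 over TNNI2 and 0.38 for TNNI1 over TNNI2. Nearly every gene differs from an abundant one: the share of genes called was 99.8% against TNNI1 and against TNNI2, 99.9% against TNNT1 and against TNNT3, and 78.6% against TNNT2. All ratios of a fit share 1 troponin gene, so they are not independent.

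The order of TNNT1 and TNNT3 rested on which TNNT3 transcripts were summed. With the leading transcript of each gene alone, TNNT1-201 averaged 1627 FPKM and TNNT3-202 averaged 1334 FPKM, and the slow transcript was higher in 4 libraries and lower in library 2. The log2 ratio was then 0.28 ± 0.43 (SD, n = 5; exact p = 0.188). With TNNT1 whole and only the 3 longer-span TNNT3 transcripts, a setting added after the values were seen, the ratio was -0.03 ± 0.40 (exact p = 0.938), with TNNT1 higher in libraries 3 and 5.

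**Figure D2:**
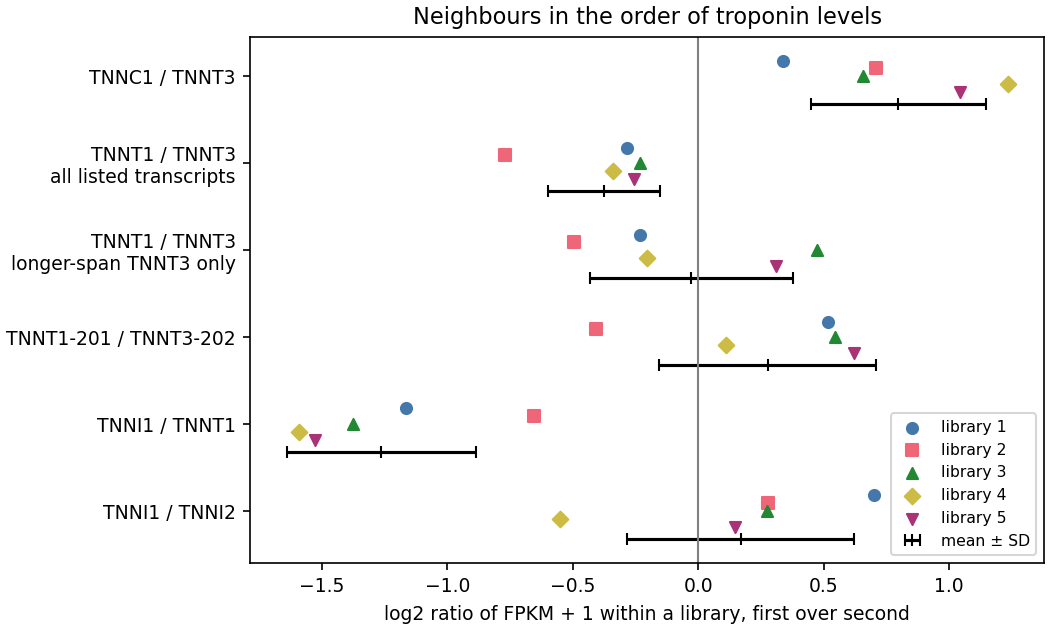
Log2 ratios of FPKM + 1 within each library, first gene over second, for neighbours in the order of troponin levels, with the mean ± SD of 5 libraries as a black bar. TNNT1 over TNNT3 is below 0 in all 5 libraries with all listed transcripts and above 0 in 4 of 5 for the leading transcripts, and TNNI1 over TNNI2 is below 0 in library 4.

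TNNT3 had the most even sum of the 6 genes, but its transcripts varied widely between animals. Its 6 listed transcripts fell into 2 spans. TNNT3-203, TNNT3-204 and TNNT3-205 covered the same interval, chromosome 29 from 49579202 to 49591577, whereas TNNT3-201, TNNT3-202 and TNNT3-206 ran 3066 to 3310 bases further at the higher coordinate. Coordinates are as the table gives them, and it names no genome build. The table gives neither exons nor strand, so what separates the transcripts inside these intervals is not stated here.

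TNNT3-202 led in every library, at 1281, 1534, 1262, 1479 and 1112 FPKM in libraries 1 to 5, or 59.4% ± 9.17 of the gene (SD, n = 5). TNNT3-201 was at 949 FPKM in library 1 and between 148 and 443 FPKM in the other 4. TNNT3-203 stood at 14.5, 45.5, 269, 4.04 and 399 FPKM in libraries 1 to 5, a 98.6-fold range. Libraries 3 and 5 were high for TNNT3-203 and the rest low. TNNT3-204 ran from 70.4 FPKM in library 1 to 511 FPKM in library 3, and TNNT3-206 from 5.04 FPKM in library 5 to 74.6 FPKM in library 1. TNNT3-205 was listed at 0 in library 2 and stood at 4.76, 115, 42.6 and 87.2 FPKM in libraries 1, 3, 4 and 5.

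By span, the longer transcripts held 96.3%, 82.6%, 61.3%, 91.0% and 67.7% of TNNT3 in libraries 1 to 5. The shorter ones held the rest, from 3.74% in library 1 to 38.7% in library 3, a mean of 20.2% ± 14.9 (SD, n = 5). In FPKM the longer set was highest in library 1 at 2305 and lowest in library 3 at 1418, and the shorter set was lowest in library 1 at 89.7 and highest in library 3 at 895. The transcripts of a gene share most of their sequence, so how fragments were divided among them is an estimate whose error is unknown here.

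The largest change in the TNNT3 transcript mix between any 2 libraries, as the summed share that moved from some transcripts to others, was 36.0 percentage points. That exceeded 86.3% of the 945 genes with at least 2 listed transcripts and a mean of at least 10 FPKM, whose median was 8.89 points. Genes with more transcripts can shift more: among the 104 with at least 5 listed transcripts the median was 22.9 points, and TNNT3 exceeded 71.2% of them. The leading transcript was the same in all 5 libraries for 805 of the 945 genes (85.2%), TNNT3 and TNNT1 among them.

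**Figure D3:**
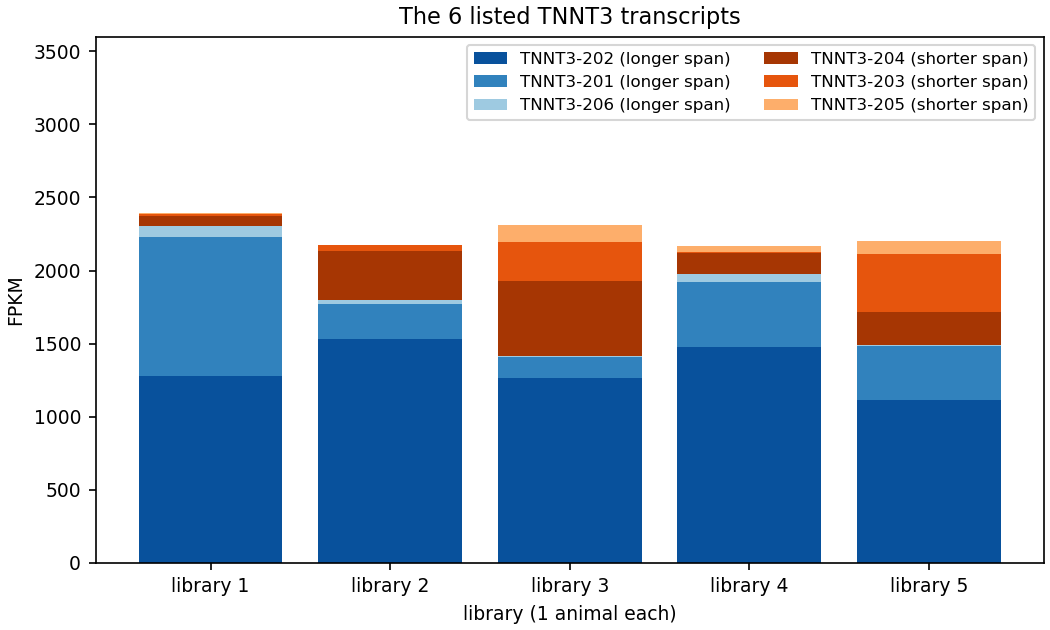
FPKM of the 6 listed TNNT3 transcripts stacked by library, with the 3 transcripts of the longer span in blue and the 3 of the shorter span in orange. The column heights stay between 2170.0 and 2395 FPKM while the orange part runs from 89.7 FPKM in library 1 to 895 FPKM in library 3.

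TNNT1 had a steady mix. TNNT1-201 carried 92.6% ± 1.26 of the gene (SD, n = 5), TNNT1-202 carried 5.17% ± 0.777 and TNNT1-204 carried 2.27% ± 0.551. Its largest shift between 2 libraries was 3.08 points, larger than that of 23.7% of the 945 genes. The low value of library 2 sat in the leading transcript, where TNNT1-201 was at 1155 FPKM against 1597 to 1843 FPKM in the other 4 libraries. TNNT1-202 and TNNT1-204 in library 2, at 83.3 and 39.6 FPKM, lay within the range of the other libraries. The transcript numbers of TNNT1 skip 1 number below TNNT1-204, so its sum covers the listed transcripts and may be partial, whereas the other 5 genes had no gap.

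The share of the slow gene was described for troponin I and for troponin T, with no test of the difference between them. TNNI1 made up 61.9%, 54.8%, 54.7%, 40.5% and 52.5% of troponin I in libraries 1 to 5, a mean of 52.9% ± 7.76 (SD, n = 5). TNNT1 made up 45.1%, 37.0%, 46.0%, 44.1% and 45.6% of the skeletal troponin T, a mean of 43.6% ± 3.74 (SD, n = 5). The animal with the lowest slow share was thus library 4 for troponin I and library 2 for troponin T. The slow share of troponin T was below that of troponin I in libraries 1, 2, 3 and 5 and above it in library 4. With leading transcripts alone the TNNT1 share was 54.7% ± 7.399 and the TNNI1 share 52.9% ± 7.76 (SD, n = 5), which turns the order of the mean shares. Neither share measures the number of slow fibres. TNNT2 was 0.0461% ± 0.00855 of the 3 troponin T genes (SD, n = 5).

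**Figure D4:**
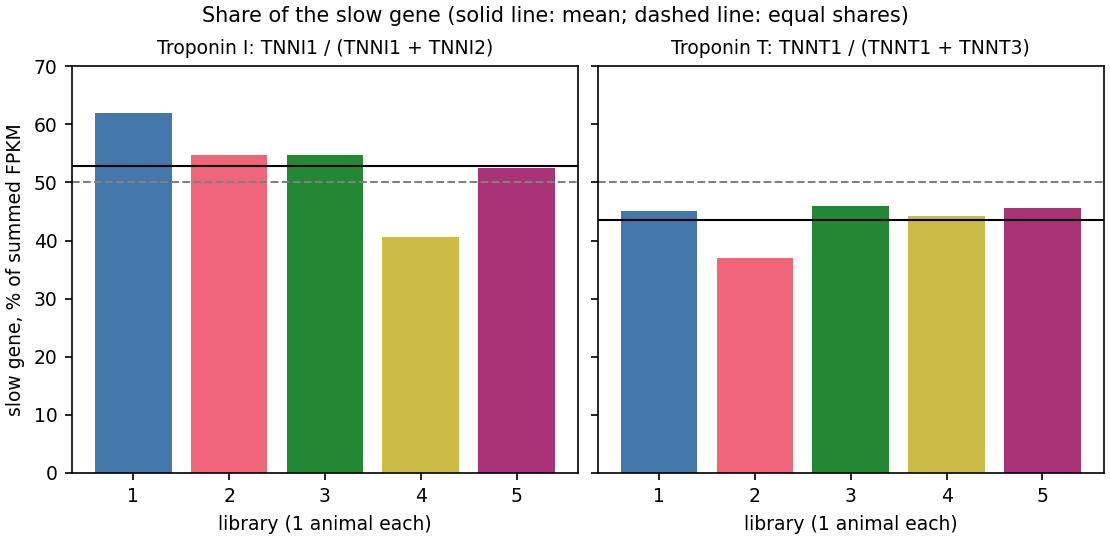
TNNI1 as a percent of TNNI1 + TNNI2 (left) and TNNT1 as a percent of TNNT1 + TNNT3 (right) in each library, with the mean as a solid line and equal shares as a dashed line. The troponin I share runs from 40.5% to 61.9% and is lowest in library 4, and the troponin T share stays below 50% and is lowest in library 2.

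In the protein complex troponin C, I and T are present in equal number, but the listed transcripts were not. The troponin T genes summed to 4009 ± 361 FPKM and the troponin I genes to 1381 ± 97.6 FPKM, a ratio of 2.92 ± 0.383 (SD, n = 5). TNNC1 alone was 2.91 ± 0.725 times the troponin I sum and 1.002 ± 0.239 times the troponin T sum (SD, n = 5). The troponin C value lacks the fast gene TNNC2, which was not analysed here, so troponin C as a whole may be higher. With leading transcripts alone the ratio of troponin T to troponin I was 2.15 ± 0.195. The tropomyosin genes TPM1, TPM2 and TPM3, whose proteins carry troponin along actin, summed to 6295 ± 465 FPKM, 1.58 ± 0.182 times the troponin T sum (SD, n = 5).

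Slow troponin genes did not move together across the 5 animals, nor did the fast ones. Ranked from low to high, TNNC1 put the libraries in the order 1, 2, 3, 5 and 4, and TNNI1 put them in the reverse order. TNNC1 was 3.46, 4.39, 4.81, 8.96 and 7.08 times TNNI1 in libraries 1 to 5. TNNI2 was highest in library 4 and lowest in library 1, while TNNT3 was highest in library 1 and lowest in library 4, by 1.104-fold. With values rescaled to TPM or by median-ratio size factors, TNNC1 and TNNI2 stayed highest in library 4 and lowest in library 1, and TNNI1 and TNNT3 stayed highest in library 1 and lowest in library 4. Under size factors libraries 2 and 3 changed places for TNNC1. The summed FPKM of the table was also lowest in library 1, at 193706, and highest in library 4, at 223251, and its part in these levels was tested only by the rescaling.

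Of 13 genes of slow fibres, chosen with earlier results known, 8 were listed and 6 detected. Of these, 4 lay above their own mean in library 4, beside 52.3% of all detected genes, and 1 in library 1, beside 50.3%. Library 2 also had 1, beside 46.2%, and libraries 3 and 5 had 3 each, beside 57.0% and 53.4%. MYL2, the slow regulatory light chain, took the order of TNNC1, at 319, 371, 403, 756 and 558 FPKM in libraries 1 to 5. MYH7, the slow myosin heavy chain, averaged 3329 ± 276 FPKM (SD, n = 5) and was at 3558 FPKM in library 4 and 3569 FPKM in library 1. MB, the oxygen store myoglobin, was at 766 FPKM in library 5 and between 106 and 214 FPKM elsewhere. The median deviation of the slow list from its own mean was -0.18 in library 1 and 0.08 in library 4 on the log2 scale, beside 0.00 and 0.02 for all detected genes. In libraries 2, 3 and 5 it was -0.16, 0.00 and 0.07, beside -0.02, 0.03 and 0.02.

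Of 14 fast fibre genes 6 were listed, all of them detected. All 6 lay below their own mean in library 1, where 50.3% of all detected genes lay above theirs. In library 4, 5 of the 6 lay above their mean, beside 52.3% of all detected genes. In library 3 all 6 did, beside 57.0%. TNNI2 went with these genes in libraries 1 and 4, at log2 deviations of -0.25 and 0.38. In library 3 it lay slightly below its mean, at -0.03. TNNT3 went against the list by little in libraries 1 and 4, at 0.09 and -0.05, and stood at 0.04 in library 3. MYLPF, the fast regulatory light chain, was at 1961 FPKM in library 1 and 3342 FPKM in library 4, MYL1, the fast essential light chain, at 852 and 1184, and MYOZ1, a Z-disc protein, at 417 and 759.5 FPKM. The median deviation of the list was -0.30 in library 1 and 0.29 in library 4. MYBPC2, the fast myosin-binding protein, lay below its mean in both. Summed over the 6 genes the list gave 4223 FPKM in library 1 and 6538 FPKM in library 4.

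**Figure D5:**
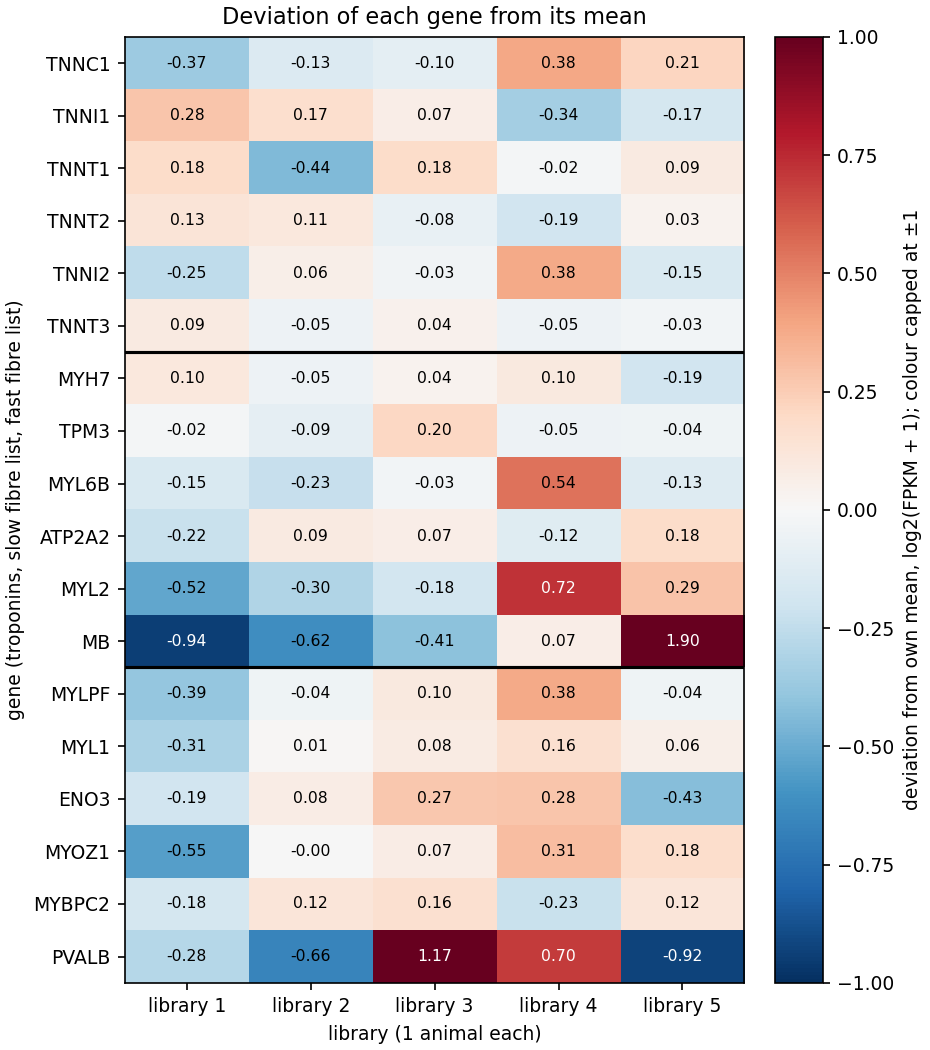
Deviation of each gene from its own mean over the 5 libraries (log2(FPKM + 1), colour capped at 1) for the 6 troponin genes, the 6 detected slow fibre genes and the 6 detected fast fibre genes. In library 4 TNNC1 and TNNI2 stand 0.38 above their means and TNNI1 stands at -0.34, and all 6 fast fibre genes are negative in library 1.

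Of the 13 genes on a list of thin filament proteins that work beside troponin, 7 were listed. All 7 were detected, at widely different levels. ACTA1, the skeletal actin, averaged 5134 ± 463 FPKM, TPM2, the beta-tropomyosin, 4203 ± 419, TPM3, the slow alpha-tropomyosin, 2080.2 ± 177, and NEB, the filament ruler nebulin, 1518 ± 148 (SD, n = 5). TPM1, another alpha-tropomyosin, averaged 11.8 ± 2.71 FPKM and ACTC1, the cardiac and fetal actin, 20.4 ± 12.9 FPKM (SD, n = 5). The SD of log2(FPKM + 1) was 0.31 for TPM1 and 0.91 for ACTC1. ACTA1 was 1.72 times TNNC1 in library 1 and 0.931 times in library 4, where NEB was also below its mean, at 1373 FPKM. Library 5 was alike, with a ratio of 1.009, NEB at 1373 FPKM and the lowest ACTA1, at 4575 FPKM. The list's median deviation lay between -0.14 in library 5 and 0.14 in library 3.

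TNNT2 is also the form of embryonic and regenerating muscle. Other genes of that kind named here lay far below the abundant troponin genes. MYH3 and CHRNG were near the level of TNNT2, and MYH8 and ACTC1 were higher. MYH8, the perinatal myosin, averaged 10.5 ± 1.42 FPKM, MYH3, the embryonic myosin, 1.54 ± 1.35, and CHRNG, the fetal acetylcholine receptor subunit, 1.81 ± 0.863 (SD, n = 5). ACTC1 ran from 7.58 FPKM in library 2 to 39.3 FPKM in library 1, a far wider range than that of TNNT2. MYH6, the alpha heavy chain of the heart, stood at 41.8 and 39.9 FPKM in libraries 1 and 2 and between 27.0 and 30.0 FPKM in the other 3. TNNT2 was also highest in libraries 1 and 2. Of the 16 cardiac and developmental genes chosen, 8 were listed and 6 detected. All 6 detected genes lay above their own mean in library 1, beside 50.3% of all detected genes. In library 2 only MYH6 did, 1 of the 6, beside 46.2%, and the median deviation of the list there was -0.19 on the log2 scale. MYH6 is close in sequence to MYH7, so its reads may be shared with that gene.

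In FPKM the spread of TNNC1, TNNI1, TNNT1 and TNNI2 over the 5 animals lay near that of a typical gene, and TNNT3 varied least. The SD of log2(FPKM + 1) was 0.30 for TNNC1, 0.25 for TNNI1, 0.26 for TNNT1, 0.14 for TNNT2, 0.24 for TNNI2 and 0.06 for TNNT3, beside a median of 0.25 over the 6136 detected genes. Of these, 93 (1.52%) had a smaller SD than TNNT3, and 1 of the 216 genes with a mean of at least 100 FPKM did. Rescaled to TPM the SD of TNNT3 was 0.13, with 7.19% of the genes with a mean of at least 1 TPM below it. For TNNC1, TNNI1, TNNT1 and TNNI2 that share was 30.5%, 46.6%, 38.8% and 17.4%. The SD of TNNT1 was 0.09 without library 2, and that of TNNI2 was 0.14 without library 4. With a pseudocount of 0.1 FPKM the SD of TNNT2 was 0.20. No troponin gene or transcript had a library that stood apart by the gap ratio, which sets the distance of the farthest library from the next against the whole range (limit 0.71 for 5 libraries). The rule was met by 6.76% of detected genes and 7.91% of transcripts with a mean of at least 1 FPKM.

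Genes whose profile over the 5 libraries was most like that of a troponin gene were found by the root mean square difference of their log2 deviations, among 1916 genes with a symbol and a mean of at least 10 FPKM. The nearest were TMEM101, LMBRD1 and EIF3K for TNNC1, at differences of 0.03, 0.05 and 0.05. They were NR3C2, the mineralocorticoid receptor, CENPC and SREK1 for TNNI1, at 0.04, 0.04 and 0.05, and IFIT5, MMRN2 and IRF2BPL for TNNT1, at 0.06, 0.06 and 0.07. For TNNT2 they were HSPB6, the small heat-shock protein of muscle, NT5C2 and ACIN1, at 0.02, 0.03 and 0.03. ECI2, a mitochondrial enzyme of fat oxidation, NEK7 and DMPK, the kinase of myotonic dystrophy, were nearest to TNNI2, at 0.03, 0.04 and 0.05. GNAI3, AQR and TAOK1, nearest to TNNT3 at 0.01, 0.02 and 0.03, were like it in varying little. A nearest gene exists for any profile among so many candidates. The added 1 FPKM shrinks the deviations of TNNT2, whose level is low. Its distances may depend on that setting, which was not tested. The closest troponin pair was TNNT2 and TNNT3, at 0.11, farther apart than each gene and its nearest 3. These genes had the smallest SDs of the troponin genes, 0.14 and 0.06. Genes that vary little lie close by this measure, so the distance does not show that they moved together.

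The troponin I and troponin T genes lay in neighbouring pairs on the chromosomes, as they do in other mammals. TNNI1, ENSBTAG00000047231, lay on chromosome 16 from 80897787 to 80906695 and TNNT2, ENSBTAG00000045789, from 80934811 to 80942857, with 28115 bases between them and no other gene of the table. RefSeq places the coding gene LAD1 between TNNI1 and TNNT2. The FPKM of TNNI1 was 399 ± 41.9 times that of TNNT2 (SD, n = 5), from 339 times in library 5 to 453 times in library 3. The sign-flip test on log2(FPKM + 1) gave an exact p of 0.0625, the smallest possible. TNNT3, ENSBTAG00000022158, lay on chromosome 29 from 49579179 to 49594887 and TNNI2, ENSBTAG00000010880, from 49645728 to 49648440, with 50840 bases between them, and here both genes were abundant. TNNT3 was 4.44 times TNNI2 in library 1 and 2.60 times in library 4. LSP1, a leukocyte gene between them, averaged 1.62 FPKM, and a gene with no symbol that begins 1317 bases beyond TNNT3 averaged 21.7 FPKM. TNNT1, ENSBTAG00000006419, lay on chromosome 18 from 62274658 to 62285833, next to TNNI3 in the RefSeq gene table of ARS-UCD2.0, and TNNC1, ENSBTAG00000045757, on chromosome 22 from 48434632 to 48437765, with no troponin gene beside it. The genes of the table next to TNNC1, STAB1 and PHF7, averaged 3.95 and 0.429 FPKM, and those next to TNNT1, PPP6R1 and PPP1R12C, 14.1 and 4.43 FPKM.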

How the data were processed

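RNA of 5 longissimus dorsi samples was sequenced, 1 library per animal, with an NEBNext library kit, as the labels' protocols state. The values the authors deposited are FPKM per transcript in each library, per the file headers. HTSeq 0.6.0, DESeq2 1.10.1 and genome build UMD3.1 appear in the submitters' processing notes with no role. Which aligner, FPKM program and annotation were used is not given in the sources used here. The positions of all 6 troponin genes overlapped their RefSeq positions in ARS-UCD2.0, so coordinates follow the table and no build is claimed.

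Transcript FPKM were summed per gene identifier. Ratios and deviations used log2(FPKM + 1), which understates differences of low genes, and genes with a mean of at least 1 FPKM counted as detected. Depth is unknown, so no counting interval was computed, and 5 libraries limit the precision. The p-values test for a difference in level between the genes of a pair, judged against how their ratio varied between these libraries. The 15 gene pairs were compared with an exact two-sided sign-flip test and with limma 3.58.1 in R 4.3.3; other steps used Python 3.11.15, numpy 2.4.6, pandas 2.3.3 and matplotlib 3.10.9. The gap ratio, the SD ranking, the search for nearest profiles and the limma fit were tested on simulated data. The transcript mix and the list deviations were not tested in this way. Members, lists and tests were chosen with earlier results of these data known. Named genes were the 6 genes and their transcripts, list members with a mean of at least 1 FPKM (highest 3 by mean and 2 by SD) and others picked after their values were seen, the 3 nearest profiles and the neighbours on the chromosome. The change in transcript mix and the split of TNNT3 by span were also added after values were seen. Alternatives were a pseudocount of 0.1, leading transcripts alone, TPM, size factors, no detection limit, limma and leaving out each library. No sequence of these genes is printed, and promoter motifs were not analysed here.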

Additional observations from a re-analysis of the deposited data

Results flagged for a closer look

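In 3 related values library 2 stood apart from the other 4 libraries by the gap ratio, whose limit for 5 libraries is 0.71. They were the share of TNNT1 in TNNT1 + TNNT3 (gap ratio 0.794), the log2 ratio of TNNT1 over TNNT3 (0.798) and that of TNNT1 over TNNT2 (0.738). All rest on the low TNNT1 of library 2, at 1278 FPKM, so they are 1 observation and not 3. Among 31 detected genes of the context lists, 4 had a library apart. They were MYL6B in library 4 (0.786), TPM3 in library 3 (0.792), MB in library 5 (0.836) and CACNB1 in library 2 (0.712). Chance flags about 5% of such groups, and 6.76% of all detected genes were flagged.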

How the results depend on the processing

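The 15 pair ratios kept their sign under a pseudocount of 0.1, TPM and each library left out. TNNT1 over TNNT3 did not hold under other choices of transcripts: with leading transcripts alone it was 0.28, the opposite direction, and with longer-span TNNT3 transcripts it was -0.03 ± 0.40 (SD, n = 5; exact p = 0.938), which gives no direction. The other 14 ratios kept their sign under both choices. The troponin I pair ran from 0.04 to 0.35 with a library left out, the ends being without library 1 and without library 4, and TNNT1 over TNNT3 from -0.41 to -0.28. Leaving 1 library out, the exact test cannot give p below 0.125. In limma's test 14 pairs passed an adjusted p of 0.05, at log2 ratios of 2.43 (TNNC1 over TNNI1), 1.17 (TNNC1 over TNNT1), 10.43 (TNNC1 over TNNT2), 2.60 (TNNC1 over TNNI2), 0.80 (TNNC1 over TNNT3), -1.26 (TNNI1 over TNNT1), 8.001 (TNNI1 over TNNT2), -1.64 (TNNI1 over TNNT3), 9.26 (TNNT1 over TNNT2), 1.43 (TNNT1 over TNNI2), -0.38 (TNNT1 over TNNT3), -7.83 (TNNT2 over TNNI2), -9.64 (TNNT2 over TNNT3) and -1.81 (TNNI2 over TNNT3). Leading transcripts alone moved the TNNT1 share of troponin T to 54.7%, troponin T over troponin I to 2.15 and TNNC1 over troponin T to 1.35, because the other transcripts of TNNT3 and TNNT1 drop out. Rescaling to TPM raised every mean by construction, to 19098 for TNNC1, 3560 for TNNI1, 8504 for TNNT1, 8.92 for TNNT2, 3125 for TNNI2 and 10911 for TNNT3, and the SD of TNNT3 to 0.13. With a library left out, the range over libraries of a list's median deviation (log2) ran from 0.30 to 0.66 for fast fibre genes, 0.22 to 0.46 for slow fibre genes, 0.17 to 0.29 for thin filament genes, 0.17 to 0.37 for calcium genes and 0.34 to 0.71 for cardiac and developmental genes. Leaving out library 1 gave the lowest value for the fast, calcium and cardiac and developmental lists, and leaving out library 5 the highest for the slow list and the lowest for the thin filament list. No paired analysis was possible because there is 1 group. The FPKM of transcripts that share sequence, as in TNNT3, carry an unknown error that no setting here measures.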

Other observations

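The calcium signal that troponin answers is set by the release and uptake genes. Of 16 such genes chosen, 11 were listed and 10 detected. ATP2A2, the slow calcium pump, averaged 1177 ± 133 FPKM, SLN, a small inhibitor of that pump, 347 ± 158, RYR1, the calcium release channel, 202 ± 34.0, and CACNA1S, the voltage sensor that opens it, 96.9 ± 17.8 (SD, n = 5). Library 1 was low for this group, with 2 of 10 genes above their own mean beside 50.3% of all detected genes, and a median deviation of -0.22 on the log2 scale. CACNA1S was at 69.8 FPKM there and between 92.4 and 116 FPKM in the other libraries. SLN was highest in library 4, at 607 FPKM, and lowest in library 3, at 199 FPKM. In library 4, where TNNC1 and TNNI2 were highest, RYR1 was lowest, at 154 FPKM. PVALB, the calcium buffer of fast fibres, ran from 0.0769 FPKM in library 5 to 3.58 FPKM in library 3.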
